A study of Bos taurus with 18 samples.

Results

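The comparison described here sets blastocysts against 8-cell embryos of cattle, across all genes of the deposited table. Its members are the 6 libraries of those stages, 3 of each, out of the 18 libraries of the series, and 17138 of the 21668 genes in the table entered the test. Both groups were in vitro produced embryos of the cross German Simmental x Brahman, and the labels name no treatment or altered allele for either. Oocytes came from abattoir ovaries of German Simmental cows, were matured in culture and were fertilized with thawed semen of a Zebu bull. The embryos were grown in synthetic oviduct fluid medium under reduced oxygen. Each library was made from a pool of 10 embryos picked by eye. The labels do not say whether the pools of a stage came from separate rounds of culture. The p-values here therefore measure the spread between pools only, estimated within stages over all 18 libraries. Oocytes of the germinal vesicle (GV) and metaphase II (MII) stages and embryos with 4 and 16 cells complete the series, and give the course of a gene before, between and around the stages compared. A blastocyst holds more cells than an 8-cell embryo, and the values are shares of a library and not amounts per embryo.

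As background, a bovine embryo lives on RNA and protein stored in the oocyte until its own genome is switched on, mainly at the 8-cell stage. By the blastocyst stage the outer cells have become the trophectoderm, an epithelium that pumps fluid into the blastocoel and later forms the placenta. The inner cell mass gives the epiblast, from which the calf arises, and the hypoblast, an extraembryonic endoderm.

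The 8-cell libraries held 9954859, 10062355 and 5206082 reads assigned to genes, and the blastocyst libraries 11203818, 6166692 and 6851870. Levels are given as scaled counts, which are reads multiplied by the library's scaling factor: 1 read was worth 0.667 to 1.31 scaled counts in these 6 libraries. Differences are blastocyst minus 8-cell means of the deposited values, on a scale close to log2, with the standard error (SE) and the Benjamini-Hochberg adjusted p of limma. At low counts that scale is compressed, so a difference understates the change of a rarely read gene. Scaled counts are not divided by gene length and are compared within a gene only. Spearman's correlation between replicates across genes was 0.929 to 0.945 in blastocysts and 0.86 to 0.907 in 8-cell embryos. The second 8-cell library differed most from its group: it detected 12393 genes, while the first detected 14081 and the last 14618.

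Many genes differed between the stages, in both directions. At an adjusted p under 0.05, 4608 genes (26.9%) were higher in blastocysts and 3423 (20.0%) were lower, while 9107 (53.1%) did not pass the test. The median difference over all genes tested was 0.27, the median among the rises was 2.93 and the median among the falls was -2.71. Among the calls, 4252 rises and 3181 falls had no overlap between the 3 libraries of one stage and the 3 of the other. Over all 17138 genes tested, called or not, 4927 were higher and 3639 lower without overlap. Reads were present in all 3 blastocyst libraries and in none of the 8-cell libraries for 727 genes, and the reverse held for 318. The balance of rises and falls depended on the scaling: with library medians set equal every difference was lower by the same amount, the median difference was -0.21, and 3502 genes were higher and 4290 lower (44.9% of calls higher against 57.4%). Without the second 8-cell library the counts were 3902 and 3353. Every rise or fall of a gene named here is read against that background of 26.9% and 20.0%. A gene read in blastocysts alone entered the test through those libraries. In lists with many such genes the share of rises is not comparable with that background. The spread of such a gene is estimated over all 18 libraries, most of which hold no reads of it. Its SE and adjusted p can then understate the spread between the blastocyst pools, as for HNF4A below.

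**Figure D1:**
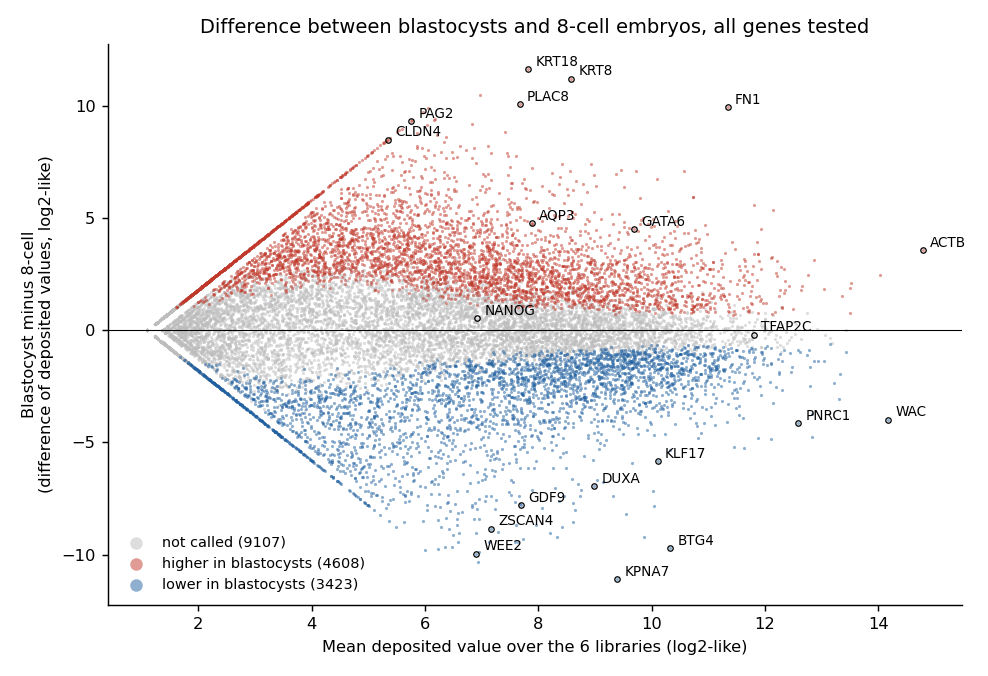
Difference between blastocysts and 8-cell embryos (vertical, difference of deposited values, log2-like) against the mean deposited value over the 6 libraries (horizontal), 1 point per gene tested, with calls at an adjusted p under 0.05 in colour and 20 named genes circled. KRT18 lies at 11.62 and KPNA7 at -11.10, and the diagonal edges are genes with no reads in the libraries of 1 stage.

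RNAs that the growing oocyte makes were lower in blastocysts in most cases tested. Of 41 oocyte and maternal-effect genes tested, 35 fell, 1 rose and 5 did not pass the test, with a median difference of -5.68. The fall of KPNA7, an importin alpha of the oocyte and early embryo that carries proteins into the nucleus, was the largest of any gene with a symbol whose groups did not overlap. KPNA7 stood at 29349, 42881 and 24572 scaled counts in the 8-cell libraries and at 8.66, 13.1 and 9.68 in the blastocyst libraries (difference -11.10 ± 0.34, adjusted p = 3.9e-15). The 16-cell libraries lay between, at 4188, 3092 and 1205. The oocyte growth factors GDF9 and BMP15 followed the same order. GDF9 was at 3027, 4725 and 2036 at the 8-cell stage and 8.66, 35.1 and 1.94 in blastocysts (difference -7.80 ± 0.51, adjusted p = 2.2e-10). BMP15 was at 20459, 31450.2 and 18007 and 18.7, 92 and 22.3 (difference -9.19 ± 0.41, adjusted p = 6.7e-13). In both genes each 8-cell library was far above each blastocyst library, and for BMP15 the rule for naming the largest falls required no overlap. The zona pellucida protein gene ZP2 went from 13447 ± 5440.0 scaled counts (mean ± SD, n = 3 in this and later such pairs) to 39.6 ± 4.42, with a difference of -8.19 ± 0.33. The NLR family gene NLRP9 fell by 8.70 ± 0.35, and ZAR1, an RNA-binding maternal-effect gene, fell by 5.64 ± 0.67. H1FOO, the linker histone of oocytes, fell from 2608 ± 746 to 0.989 ± 1. OOSP1, a secreted oocyte protein, and ACCSL, a homologue of a plant enzyme, fell by 9.32 and 9.44. DPPA3, which guards maternal DNA methylation, was at 29305, 39219.6 and 16075 at the 8-cell stage and 3709, 1173 and 1839 in blastocysts (difference -3.72 ± 0.37, adjusted p = 6.9e-08). The exception in the list was KIT, the receptor of stem cell factor, which rose from 3532 ± 947 to 5771 ± 228 (difference 0.74 ± 0.26, adjusted p = 0.025). That call was kept in 9 of 16 alternative settings, with an adjusted p of 0.0093 to 0.11 over those that left out 1 library, and the 16-cell libraries lay below both stages, at 592, 759.5 and 1069.

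Regulators of the oocyte cell cycle and of stored mRNA fell more often than they rose. Of 42 meiosis and M-phase regulators, 20 fell and 2 rose, with a median of -0.67. WEE2, the kinase that holds the oocyte in meiotic arrest, stood at 4032, 5444 and 2483 in the 8-cell libraries and 2.67, 0 and 0.968 in blastocysts (difference -9.96 ± 0.38, adjusted p = 1e-13). AURKA, the spindle kinase Aurora A, fell from 38725 ± 11209 to 1416 ± 239, a difference of -4.74 ± 0.28. CDCA8, a subunit of the chromosomal passenger complex, and the cyclin CCNB3 fell by 4.11 and 4.24. The risers were BUB1B, a spindle checkpoint kinase, at 1.14 ± 0.32, and PKMYT1, an inhibitory kinase of CDK1, at 2.79 ± 0.75; the call of BUB1B was lost with medians set equal (adjusted p = 0.19). Of 44 genes of mRNA decay and poly(A) control, 21 fell and 6 rose (median -0.69). BTG4, an adaptor that brings deadenylases to maternal mRNA, was at 33750.3, 54177 and 28564 at the 8-cell stage and 50, 135 and 7.74 in blastocysts (difference -9.72 ± 0.61, adjusted p = 1.3e-10). CPEB1, which binds the cytoplasmic polyadenylation element, fell from 1208 ± 192 to 1.33 ± 2.31. The terminal uridylyltransferases moved in opposite directions. ZCCHC6 (TUT7) fell from 14043, 7021 and 18269 to 751, 644 and 1099.6 (difference -3.90 ± 0.32, adjusted p = 5.7e-09), while ZCCHC11 (TUT4) rose from 199.6, 32.1 and 61.7 to 809.8, 765 and 1293 (difference 3.57 ± 0.68, adjusted p = 0.00022). CNOT1, the scaffold of the CCR4-NOT deadenylase, rose by 1.51 ± 0.23, and CNOT4, a ubiquitin ligase of that complex, fell by 3.82 ± 0.23.

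Factors known from genome activation fell more often than they rose. Of 27 such genes tested, 16 fell, 4 rose and 7 did not pass the test, with a median of -1.82. The homeobox gene DUXA, nearly silent in oocytes, stood at 6562, 4816 and 5695 at the 8-cell stage, 22781, 17251 and 9313 at the 16-cell stage and 26.7, 83.3 and 31 in blastocysts (difference -6.95 ± 0.54, adjusted p = 2.3e-09). KLF17, a Kruppel-like factor of early human and bovine embryos, ran at 7215, 7791 and 10364, then 6843, 8801 and 6151, then 128, 127 and 171 (difference -5.85 ± 0.54, adjusted p = 3.1e-08). For both genes the 8-cell and blastocyst libraries did not overlap, and the blastocyst libraries were still above the 4-cell means of 3.12 ± 2.85 and 6.06 ± 5.39. ZSCAN4, a zinc finger gene of the activation burst, was at 2743, 3448 and 3069 and 0, 12.1 and 4.84 (difference -8.85 ± 0.91, adjusted p = 1.2e-07). MBD3L2, a relative of the methyl-CpG-binding protein MBD3, was at 2662, 3167 and 1900.4 and 3.33, 0 and 0 (difference -9.64 ± 0.80, adjusted p = 6.1e-09). ZNF41, a zinc finger gene with no reads in any oocyte or 4-cell library, went from 1639.7, 1212 and 1042 to 4.67, 9.86 and 9.68. PNRC1, a coactivator of nuclear receptors, stood at 29451, 18562 and 32086 at the 8-cell stage, 54515, 39771 and 37434 at the 16-cell stage and 1676, 1327 and 1390.0 in blastocysts (difference -4.15 ± 0.43, adjusted p = 1.2e-07). KLF4 went from 4719 ± 326 to 1514 ± 192. KLF5 and POU5F1 went the other way. KLF5, a factor of trophectoderm and inner cells, rose from 421, 134 and 1049 to 4972, 2550.2 and 6306 (difference 3.45 ± 0.56, adjusted p = 3.8e-05). In the KLF family as a whole 2 of 15 members rose and 4 fell. KLF6 joined KLF5 (5.13 ± 1.19), KLF11 and KLF12 joined KLF4 and KLF17 (-3.06 ± 0.53 and -3.60 ± 0.40), and the family's median of 0.08 turned to -0.40 with medians set equal and to -0.46 without the second 8-cell library.

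**Figure D2:**
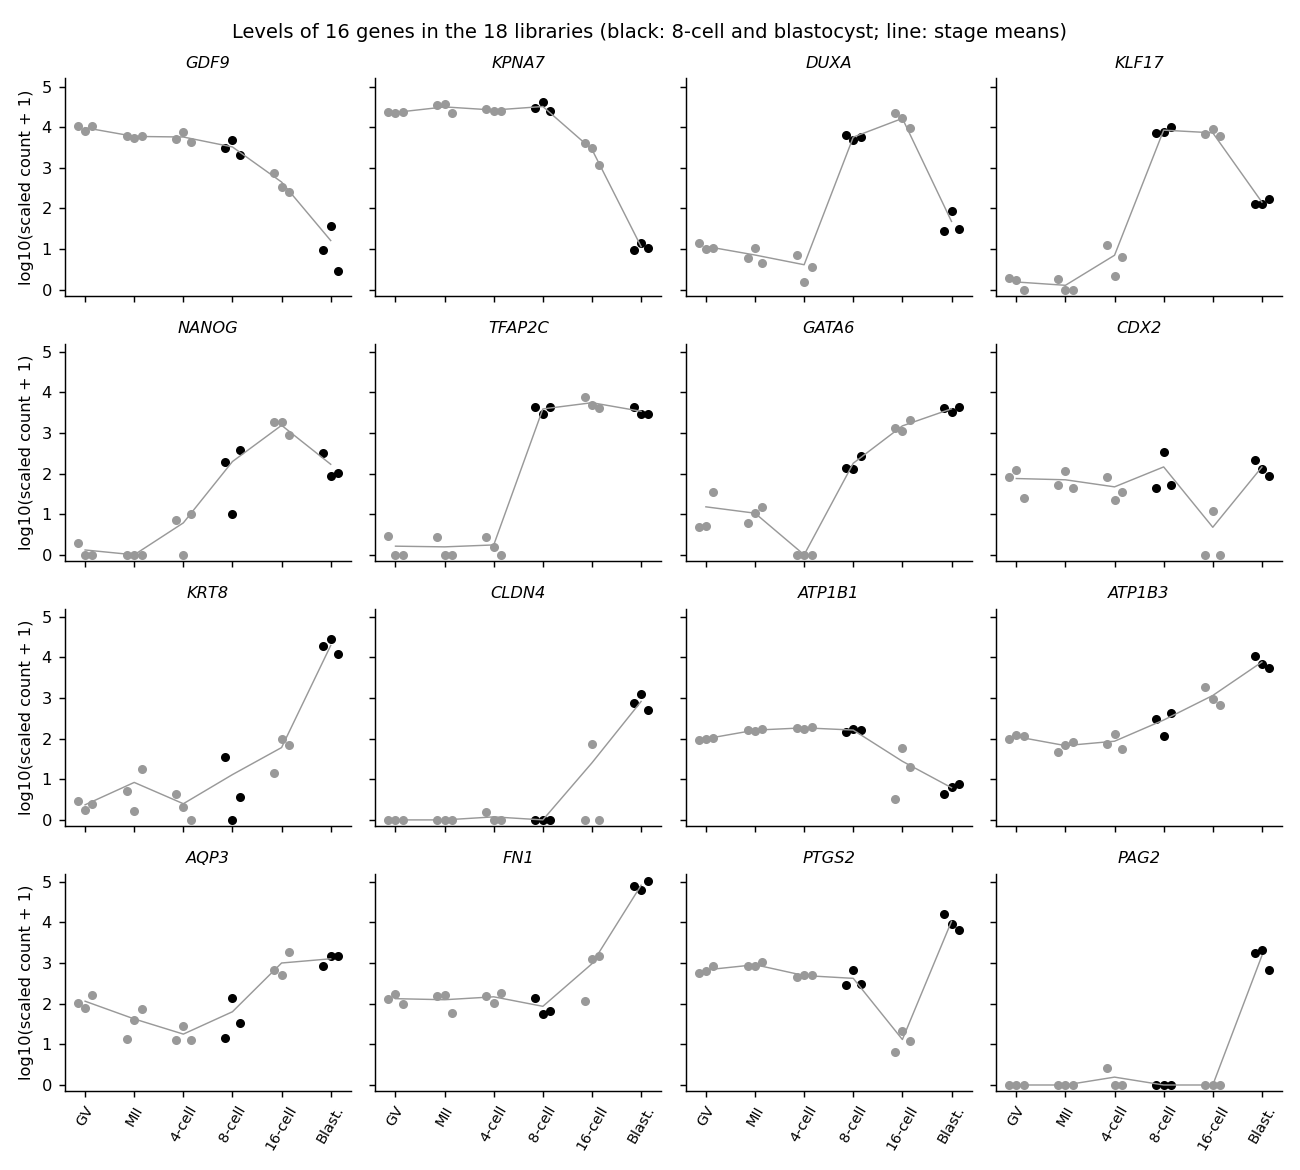
Levels of 16 genes in all 18 libraries, as log10 of the scaled count plus 1 (vertical), by stage (horizontal), with 1 point per library, black for the compared stages and grey for the others, and a line through the stage means. GDF9 and KPNA7 descend from the oocyte level, DUXA and KLF17 are highest at the 8-cell and 16-cell stages, and KRT8, CLDN4, FN1 and PAG2 are high in blastocysts.

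Trophectoderm genes rose more often than they fell. Of 37 tested, 19 rose, 7 fell and 11 did not pass the test (median 1.36). This list holds members that are counted again in other lists, among them keratins, BMP4 and ID3. In pools of whole embryos, fewer cells of a type and less RNA per cell cannot be told apart. TEAD4, the DNA-binding partner of YAP1 that opens the trophectoderm programme, had 0 reads in all 3 8-cell libraries and stood at 237, 446 and 295 in blastocysts (difference 7.22 ± 0.67, adjusted p = 2.9e-08). It was already at 296, 302 and 102 in 16-cell embryos. GATA3 rose from 20.7, 147 and 149.6 to 691, 1042 and 927 (difference 3.40 ± 0.98, adjusted p = 0.007), a call lost without the first 8-cell library, which had the lowest value (adjusted p = 0.0523). GATA2 rose from 359, 490.2 and 337 to 1149.8, 910.3 and 979 (difference 1.36 ± 0.44, adjusted p = 0.015), a call lost with medians set equal (adjusted p = 0.17) and without the first blastocyst library (adjusted p = 0.0504). CDX2, the homeobox factor of the trophectoderm, was at 42.8, 341 and 49.9 at the 8-cell stage and 213, 130.4 and 88.1 in blastocysts (difference 0.54 ± 0.91, adjusted p = 0.66). Its groups overlapped, with the highest value of the 6 in the second 8-cell library, and its 16-cell libraries were at 0, 11.3 and 0. TFAP2C, an AP-2 factor, was at 4361, 2876 and 4441 and 4431, 2927 and 2861 (difference -0.20 ± 0.54, adjusted p = 0.8), after fewer than 1 scaled count on average in oocytes and 4-cell embryos. TFAP2B, its relative, fell from 179 ± 45.1 to 0.365 ± 0.632, and ID3, an inhibitor of basic helix-loop-helix factors, fell from 592 ± 56.1 to 17.9 ± 19.3. SLC7A4, an amino acid carrier family member, had 0 reads in the 8-cell libraries and 505, 1630.0 and 513 scaled counts in blastocysts.

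Inner cell mass and hypoblast lists held rises, falls and genes that did not pass the test. Of 33 inner cell mass and pluripotency genes, 15 rose and 7 fell (median 1.63, or 0.78 without the second 8-cell library), and of 28 hypoblast genes, 14 rose and 3 fell (median 2.47). POU5F1, which encodes OCT4, rose from 152, 202 and 181 to 1849.6, 3738 and 1735 (difference 3.66 ± 0.38, adjusted p = 1.7e-07), with no overlap. NANOG, a factor of the epiblast, was at 193, 9.16 and 387 at the 8-cell stage and 316, 86.5 and 102 in blastocysts (difference 0.53 ± 1.02, adjusted p = 0.7), and its difference was -0.93 without the second 8-cell library and -0.034 without the first blastocyst library. Its 16-cell libraries, at 1847, 1858 and 906, were above all 6 libraries compared. SOX2 overlapped as well, at 81.3, 24.4 and 367 and 85.3, 232 and 251 (difference 0.86 ± 0.67, adjusted p = 0.31), and its difference was -0.023 without the second 8-cell library; without the 8-cell library of replicate 3, which held the highest value, it passed the test (adjusted p = 0.015). FGF4, the epiblast signal that drives hypoblast formation, was read only in blastocyst libraries 2 and 3 of all 18, at 21.9 and 21.3 scaled counts, and was too rare to enter the test. SPIC, an ETS-domain factor, rose from 6.42, 0 and 0 to 1998, 969 and 1769 (difference 8.71 ± 0.77, adjusted p = 1.6e-08). The tetraspanin CD9 rose from 198 ± 47.4 to 8024 ± 1406, a difference of 5.32 ± 0.39. On the hypoblast side GATA6 rose from 139.7, 129.8 and 266 through 1319, 1118 and 2032 at the 16-cell stage to 4124, 3234 and 4415 (difference 4.49 ± 0.61, adjusted p = 4.6e-06). HNF4A, a nuclear receptor of endoderm, had 0 reads in 8-cell and 16-cell libraries and stood at 591, 177 and 125 in blastocysts (difference 6.81 ± 0.58, adjusted p = 1e-08). The endocytic receptor LRP2 (megalin) rose from 724 ± 239 to 29485 ± 5212 (difference 5.37 ± 0.34, adjusted p = 1.3e-10). GATA4 and PDGFRA did not pass the test. GATA4 was at 0, 6.87 and 10.5 and 17.3, 2.19 and 20.3 (difference 1.05 ± 1.37, adjusted p = 0.56), and PDGFRA at 1045, 524 and 2055 and 3583, 2700.3 and 4101 (difference 1.71 ± 0.81, adjusted p = 0.091; it was called in 2 of 16 alternative settings). The VEGF receptor KDR fell by 4.30 ± 0.56.

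The keratins KRT18 and KRT8 gave the largest rises of any gene with a symbol whose groups did not overlap. Of 11 keratin genes tested, 7 rose and 0 fell (median 2.71). The table held 14 keratin genes, and those with reads in too few libraries were not tested. In the second 8-cell library the list's median was the value of a gene without reads. Many keratins therefore had little room to fall, and the shares are not comparable with those of all genes tested. KRT18 and KRT8, a keratin pair of simple epithelia, were close to absent in 8-cell embryos. KRT18 was at 0, 0 and 10.5 in the 8-cell libraries and 14435, 19852 and 7166 in the blastocyst libraries (difference 11.62 ± 0.99, adjusted p = 9.6e-09). KRT8 was at 33.5, 0 and 2.62 and 18575, 28062 and 12122 (difference 11.19 ± 0.97, adjusted p = 1.1e-08). At the 16-cell stage KRT8 had reached only 13.5, 96 and 68.7. KRT19 rose from 25.2 ± 30.7 to 671 ± 567. The actin genes moved with them, although in no list: ACTB rose from 8427 ± 1998 to 99077 ± 23638 (3.56 ± 0.24), ACTG1 from 529 ± 173 to 25889 ± 8863 (5.60 ± 0.48), and the tropomyosin TPM4 from 127 ± 28.6 to 18567 ± 5962 (7.11 ± 0.59). Genes of annexins and S100 proteins, which bind calcium at membranes, rose in 14 of 23 cases and fell in 1 (median 2.69). The table held 27 of these genes, and their median in the second 8-cell library was also the value of a gene without reads. The same limit on falls and shares holds for them. S100A14 was at 0.713, 0 and 1.31 and 5787, 6314 and 2888 (difference 10.47 ± 1.00, adjusted p = 4.5e-08). ANXA1 and ANXA2 rose by 8.11 ± 0.89 and 6.53 ± 0.87. The faller was S100B (-1.56 ± 0.61, adjusted p = 0.042), whose call was kept in 8 of 16 alternative settings, with an adjusted p of 0.0066 to 0.21 over those that left out 1 library.

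Junction genes rose in most of the called cases. Of 42 tight junction and polarity genes, 20 rose and 7 fell (median 1.47), and the split was 17 to 12 with medians set equal. The falls were 4 without the first 8-cell library and 4 without the first blastocyst library. CLDN4, a sealing claudin, had 0 reads in the 8-cell libraries and stood at 751, 1219 and 497 in blastocysts (difference 8.50 ± 0.96, adjusted p = 4.5e-07). The plaque proteins TJP3 and cingulin (CGN) rose from 1.19 ± 2.06 to 717 ± 225 and from 4.44 ± 2.68 to 853 ± 142. TJP1, which encodes ZO-1, rose less, from 1057, 1510.4 and 1326 to 4114, 3042 and 3387 (difference 1.44 ± 0.28, adjusted p = 0.00026). Its means were 3451 ± 71 in GV and 4238 ± 423 in MII oocytes, so that the rise followed a lower level at the 8-cell stage. Occludin (OCLN) was at 3391, 3004 and 1335 at the 8-cell stage and 1785, 1310.2 and 1638 in blastocysts (difference -0.61 ± 0.43, adjusted p = 0.26), after 97.8, 522 and 254 at the 16-cell stage; with medians set equal it passed the test as a fall (adjusted p = 0.0451). The apical linkers MSN (moesin) and SLC9A3R1 rose by 4.33 ± 0.36 and 3.55 ± 0.38. MPP5, a scaffold of the Crumbs polarity complex, fell from 5436 ± 231 to 2128 ± 933, and PARD3B fell by 2.30 ± 0.50. Of 25 adherens junction and desmosome genes, 16 rose and 2 fell (median 2.35). CDH1, which encodes E-cadherin, rose from 652, 328 and 569.6 to 2623, 3096 and 7146 (difference 2.95 ± 0.41, adjusted p = 6.8e-06). The desmosomal cadherins DSG2 and DSG3 rose from 55.2 ± 52.7 to 6620.0 ± 2503 and from 4.04 ± 7 to 691 ± 57. Desmoplakin (DSP) rose from 169, 239.8 and 151 to 4422, 3519.7 and 4061 (difference 4.41 ± 0.80, adjusted p = 0.00012). P-cadherin (CDH3) went the other way, from 563 ± 248 to 62.6 ± 38.8 (-3.15 ± 0.41), as did NECTIN3 (-2.20 ± 0.57).

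Transport genes of the blastocoel held rises and falls. Of 26 tested, 7 rose and 10 fell (median -0.29). The share of rises, 26.9%, was that of all genes tested, and falls took 38.5% against 20.0%. The sodium pump is a pair of an alpha and a beta subunit, with FXYD proteins as modulators. Of the beta subunits, ATP1B3 rose from 304, 117 and 437 to 11037, 6714 and 5325 (difference 4.85 ± 0.48, adjusted p = 8.6e-08), while ATP1B1 fell from 147, 174 and 164 to 3.33, 5.48 and 6.78 (difference -4.23 ± 0.66, adjusted p = 2.5e-05). Neither beta gene overlapped between the stages. FXYD4 rose from 7.58 ± 6.91 to 3859 ± 1642 (8.85 ± 0.92). The water and glycerol channel AQP3 rose from 13.5, 141 and 32.8 to 844, 1479 and 1502 (difference 4.76 ± 0.71, adjusted p = 1.3e-05), and its 16-cell libraries were at 689, 497 and 1828. Falls included the chloride channel CFTR, from 851 ± 618 to 8 ± 7.69, and carbonic anhydrase CA2 (-5.15 ± 0.74).

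Several secreted products of the ruminant trophoblast, close to 0 in 8-cell embryos, were read in every blastocyst library. Of 18 tested, 9 rose and 1 fell (median 1.91). The table held 26 of these genes, and those read almost only in blastocysts entered the test through that stage. The share of rises is therefore not comparable with that of all genes tested. Interferon tau, the signal by which a ruminant embryo is recognised by its mother, was at 0.713, 0 and 0 in 8-cell libraries and 438, 1184 and 218 in blastocysts for IFNT (difference 7.56 ± 0.67, adjusted p = 1.7e-08). The table's second entry, IFN-tau-c1, was at 49.3, 92 and 30 in blastocysts with 0 reads in 8-cell libraries. PAG2, a pregnancy-associated glycoprotein, was at 0 in all 3 8-cell libraries and at 1777, 2144 and 657 in blastocysts (difference 9.32 ± 0.62, adjusted p = 2.5e-10). In these 3 genes every blastocyst library was above every 8-cell library, and blastocyst library 3 was the lowest. For PAG2 the rule for naming the largest rises required no overlap. PTGS2, the cyclooxygenase that starts prostaglandin synthesis, passed through a low: 285, 679 and 297 at the 8-cell stage, 5.62, 19.8 and 11.1 at the 16-cell stage and 16265, 9339 and 6412 in blastocysts (difference 4.67 ± 0.41, adjusted p = 1.5e-08). The faller was CSH2, a chorionic somatomammotropin gene, at 4.28, 8.4 and 19.7 in 8-cell embryos and 0 in blastocysts. PLAC8, named for the placenta, rose from 4.99, 0 and 9.19 to 8827, 9918 and 3386 (difference 10.06 ± 0.85, adjusted p = 7.8e-09).

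Matrix genes rose more often than they fell. Of 46 tested, 23 rose and 5 fell (median 1.95). Fibronectin (FN1) measured 135, 53.5 and 66.9 at the 8-cell stage, 118, 1271 and 1505 at the 16-cell stage and 80479, 63450.3 and 103328 in blastocysts, a 966-fold ratio of mean scaled counts (difference 9.93 ± 0.66, adjusted p = 2.5e-10). ITGA5, the alpha subunit of its receptor, rose from 2.85, 0 and 3.94 to 2012, 3757 and 2733 (difference 9.19 ± 1.05, adjusted p = 5.2e-07). Every blastocyst library was above every 8-cell library in both genes, which the rule for naming the largest rises required. The laminin LAMB1 rose by 3.45 ± 0.52, and the basement membrane linkers split: nidogen NID1 rose from 20.8 ± 35.4 to 2525 ± 1013, and NID2 fell from 1648 ± 238 to 681 ± 178. LAMA3 fell by 2.52 ± 0.51. PLAU, the urokinase that cuts plasminogen, had 0 reads in 8-cell and 16-cell libraries and stood at 1508, 925 and 902 in blastocysts.

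Nearly all respiratory chain and cytosolic ribosomal protein genes tested rose, and most mitochondrial ribosomal protein genes did. Of 77 respiratory chain and ATP synthase subunit genes, 75 rose and 0 fell, with a median of 4.15. ATP5A1 and ATP5O of the ATP synthase rose from 337 ± 55 to 6893 ± 1391 (4.33 ± 0.29) and from 281 ± 72.5 to 7371 ± 2977 (4.64 ± 0.32). SDHA of complex II rose from 4.99, 9.16 and 55.1 to 1596, 2361 and 1467 (difference 6.55 ± 0.56, adjusted p = 1.1e-08). Of the risers, 71 had a blastocyst mean above every earlier stage mean of GV, MII, 4-cell and 8-cell. Cytosolic ribosomal protein genes rose in 73 of 80 cases with 0 falls (median 2.68). RPL11 went from 1175 ± 223 to 12701 ± 3846 and RPL14 from 371 ± 67.7 to 8629 ± 3573, and their 16-cell means, 5985 ± 1313 and 4509.5 ± 999, were already between. Mitochondrial ribosomal protein genes rose in 52 of 75 cases and fell in 1 (median 2.15). The faller was MRPL32 (-1.06 ± 0.33), which missed the threshold without the second 8-cell library (adjusted p = 0.0544). With medians set equal these 3 lists kept 71, 69 and 41 rises and 0, 0 and 1 falls. Proteasome genes rose in 30 of 40 cases and fell in 1 (median 1.81). PSMB4 of the catalytic core rose from 83 ± 77.8 to 1972 ± 465, and PSMD9, an assembly chaperone of the regulatory particle, fell from 2012 ± 918 to 461 ± 159.6.

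Metabolic genes rose more often than they fell in each list given here, while some related subunits and enzymes moved in opposite directions. Of 24 glycolysis genes, 14 rose and 1 fell (median 2.07). The lactate dehydrogenase subunits crossed: LDHB rose from 388, 558 and 409 to 3783, 3859 and 2259 (difference 2.83 ± 0.30, adjusted p = 2.1e-07), and LDHA fell from 2140.2, 4863 and 2053 to 924, 794 and 704 (difference -1.78 ± 0.33, adjusted p = 0.00016). The glucose transporter SLC2A1 rose from 385 ± 199 to 2745 ± 101, and enolase ENO1 and PGAM1 rose by 3.90 ± 0.41 and 2.95 ± 0.35. Of 39 sterol and lipid genes, 22 rose and 3 fell (median 1.59). The desaturases SCD and FADS2 had 0 reads in the 8-cell libraries and stood at 2064, 1751 and 765 and at 207, 184 and 494 in blastocysts. The elongases split, ELOVL6 rising by 3.43 ± 0.30 and ELOVL5 changing by -1.33 ± 0.31. Lysosome and V-ATPase genes rose in 34 of 44 cases and fell in 4 (median 2.87). The proton pump's membrane subunits split too: ATP6V0A4 rose from 22.1, 19.1 and 27.6 to 3325, 3890.0 and 3126 (adjusted p = 3.9e-06), and ATP6V0A1 fell from 481, 1222 and 646 to 82.6, 148 and 170.4 (difference -2.46 ± 0.42, adjusted p = 5.8e-05). The lysosomal proteases CTSA and CTSL1 rose by 7.68 ± 1.02 and 6.69 ± 0.92. Of 38 antioxidant genes, 20 rose and 4 fell (median 1.80), and with medians set equal 13 rose and 5 fell. Thioredoxin (TXN) rose from 471 ± 146 to 9890.4 ± 5039.5. The ferritin chains diverged, the heavy chain FTH1 rising from 146, 395 and 252 to 3113, 2296 and 1814 (difference 3.24 ± 0.38, adjusted p = 6e-07) and the light chain FTL falling from 3739, 6182 and 3007 to 1498, 1855 and 697 (difference -1.72 ± 0.42, adjusted p = 0.002). Neither chain overlapped between the stages.

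**Figure D3:**
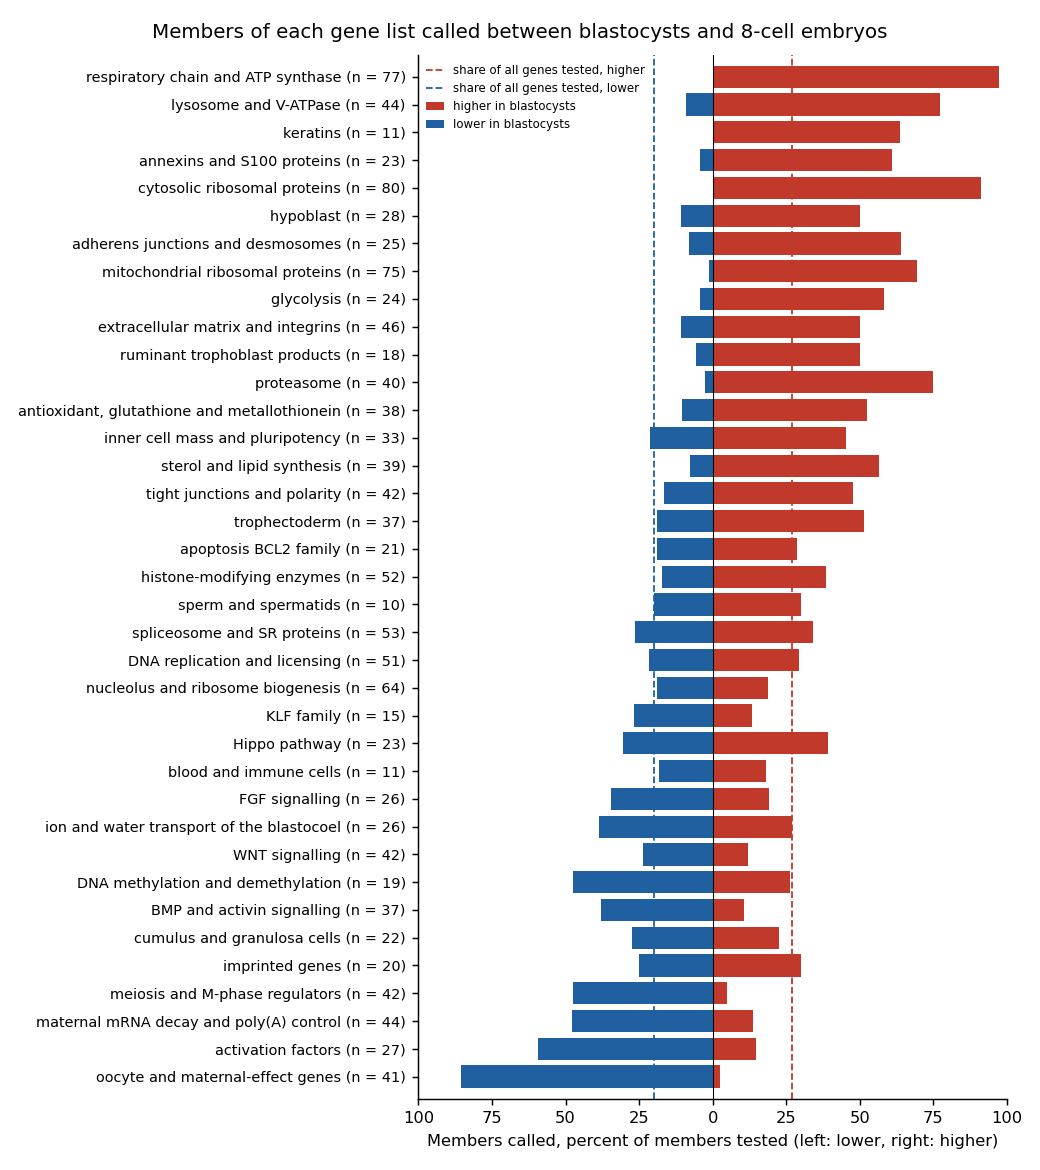
Share of each list's tested members that were called higher (right, red) or lower (left, blue) in blastocysts, in percent, for 37 gene lists ordered by their median difference, with dashed lines at the shares of all genes tested, 26.9% and 20.0%. The respiratory chain list lies at the top with 97.4% higher, and the oocyte list at the bottom with 85.4% lower.

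Machinery of the nucleus showed no common direction. Nucleolar and ribosome biogenesis genes rose in 12 and fell in 12 of 64 cases, and with medians set equal in 3 and 15. Spliceosome genes gave 18 rises and 14 falls of 53, which turned to 10 and 18 with medians set equal. DNA replication genes gave 15 rises and 11 falls of 51, and 11 and 15 with medians set equal. The replication shares, 29.4% and 21.6%, were near the 26.9% and 20.0% of all genes tested. Without the second 8-cell library or the second blastocyst library the falls were 9 or 8 in the spliceosome list and 7 or 6 in the replication list. Within replication, the ribonucleotide reductase subunits RRM1 and RRM2 rose by 2.94 ± 0.36 and 2.16 ± 0.31, while the origin factors CDC6 and ORC5L fell from 2572 ± 934 to 284 ± 103 and from 4772 ± 1473 to 346 ± 103. In the nucleolus, the GTPase GNL3L rose from 139.6 ± 140.1 to 1862 ± 366, and the RNA acetyltransferase NAT10 fell from 3044 ± 350.3 to 605 ± 183. The splicing core proteins PRPF8 and SF3B3 rose by 2.39 ± 0.35 and 2.62 ± 0.55.

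Chromatin lists held rises and falls. Of 52 histone-modifying enzymes, 20 rose and 9 fell (median 0.70). With medians set equal 12 rose (median 0.22), and 13 rose without the second 8-cell library, as without the last blastocyst library (13). The deacetylases diverged: HDAC1 rose from 329, 97 and 777 to 3564, 4037 and 4174 (difference 3.72 ± 0.48, adjusted p = 2.3e-06), HDAC8 rose by 5.21 ± 0.68, and HDAC9 fell from 238 ± 111 to 0.767 ± 0.689. The demethylases KDM1A and KDM6A rose by 2.20 ± 0.32 and 3.05 ± 0.45, and the methyltransferase SETDB1 fell from 1882 ± 781 to 309 ± 161. Of 19 DNA methylation genes, 5 rose and 9 fell (median -0.48). DNMT3A, which sets new methyl groups, rose from 125, 52.7 and 251 to 2932, 3704 and 3274 (difference 4.74 ± 0.53, adjusted p = 4e-07). UHRF1, which guides maintenance methylation, fell from 3058, 1940.2 and 2218 to 44, 34 and 54.2 (difference -5.64 ± 0.37, adjusted p = 2.2e-10). Neither gene overlapped between the stages. UHRF2 fell by 2.89 ± 0.32. XIST, the RNA of X inactivation, rose from 686, 32.1 and 1011 to 5061, 3574 and 5343 (difference 3.97 ± 1.23, adjusted p = 0.012); the call was lost without the second 8-cell library, which held its lowest value (adjusted p = 0.1), and the sexes of the pooled embryos are not given. Of 20 genes known as imprinted in later tissues, 6 rose and 5 fell, a split that turned to 6 and 7 with medians set equal. Their shares were 30% and 25%, against 26.9% and 20.0% of all genes tested. GNAS and IGF2R rose by 2.94 ± 0.45 and 2.37 ± 0.55, while PLAGL1 and ZIM2 fell from 283 ± 151 to 5.98 ± 6.92 and from 1420.1 ± 286 to 1.41 ± 1.45.

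Signalling lists held more falls than rises, except the Hippo list, whose split turned with medians set equal. Falls took 37.8% of the BMP and activin list and 34.6% of the FGF list, against 20.0% of all genes tested. The WNT share of falls, 23.8%, was near that background. Of 37 BMP and activin genes, 14 fell and 4 rose (median -0.51), GDF9 and BMP15 among the falls. BMP4, a ligand made by the embryo, was at 1268, 1232 and 1740.3 at the 8-cell stage and 67.3, 263 and 194 in blastocysts (difference -3.17 ± 0.44, adjusted p = 5.1e-06). The receptors BMPR1B and BMPR2 fell by 5.50 and 2.68, and the signal carrier SMAD1 rose by 2.10 ± 0.56. Of 26 FGF genes, 9 fell and 5 rose (median -0.19, or -0.05 without the second 8-cell library). The ligands FGF16 and FGF18 fell from 178 ± 58.6 to 2.47 ± 2.78 and from 136 ± 144 to 0.323 ± 0.559. Among receptors FGFR3 rose from 12.8, 0 and 6.56 to 30, 122 and 124 (difference 3.51 ± 0.72, adjusted p = 0.00044), and FGFR2 was at 150.4, 16 and 7.87 and 57.3, 159 and 157 (difference 1.82 ± 0.94, adjusted p = 0.12), with the first 8-cell library inside the blastocyst range; without that library it passed the test (adjusted p = 0.015). The feedback inhibitors SPRY1 and SPRY4 went apart, at -3.93 ± 0.72 and 3.78 ± 0.84. Of 42 WNT genes, 10 fell and 5 rose (median -0.36, or -0.68 without the second 8-cell library), with 3 rises without the second blastocyst library. The nuclear partners of beta-catenin fell: LEF1 from 5639, 5569.5 and 4563 to 2, 2.19 and 10.6 (difference -9.42 ± 0.38, adjusted p = 1.5e-13), while TCF7 fell by 3.48 and TCF7L2 fell by 2.47. APC, of the beta-catenin destruction complex, rose by 2.34 ± 0.30. In the Hippo list 9 rose and 7 fell of 23, and 7 and 8 with medians set equal. With TEAD4 rose its cofactor VGLL1, from 0 reads to 563, 504 and 65.8, the adaptor WWC1 (5.07 ± 0.77) and the target CTGF (3.95 ± 0.68). VGLL4, a TEAD repressor, and the kinase STK4 fell by 3.82 and 2.17.

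Of 21 apoptosis genes, 6 rose and 4 fell (median 0.82). The split turned without the second 8-cell library, to 3 rises and 5 falls, and 3 rose and 3 fell without the first blastocyst library. BCL2L10, an oocyte inhibitor of cell death, fell from 172 ± 41.5 to 3.1 ± 3, and APAF1, the core of the apoptosome, fell from 1164 ± 138 to 382 ± 43.3. BOK, a promoter of cell death, was read in no library before the blastocyst, where it stood at 32, 126 and 28.1. BAD rose by 4.17 ± 1.26, a call lost without the first (adjusted p = 0.0542) and without the second (adjusted p = 0.053) 8-cell library.

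Genes outside the lists, some of them named for a high mean scaled count, moved as well. WAC, a partner of histone H2B ubiquitination, was at 88099, 78395 and 58831 at the 8-cell stage and 5412, 4158 and 4385 in blastocysts (difference -4.00 ± 0.24, adjusted p = 7.8e-11). ANKRD17, an ankyrin repeat protein, fell from 29554 ± 4247 to 3606 ± 969.5, and the kinase RIOK3 from 20277 ± 6360.0 to 717 ± 122. The ubiquitin ligase SIAH1 fell from 17503 ± 5195 to 461 ± 80. Its 8-cell mean was above those of GV oocytes (3905 ± 1817) and 4-cell embryos (2553 ± 350.2). TECTB, a tectorin best known from the inner ear, was at 1803, 2735 and 1389 in 8-cell embryos and had 0 reads in blastocysts. FANK1, of spermatogenic cells, and SAXO1, a microtubule stabiliser, fell from 2363 ± 866 to 1.63 ± 1.49 and from 3826 ± 1279 to 1.94 ± 0.876. RHOA, a small GTPase of the cytoskeleton, fell by 2.34 ± 0.26. Unlisted rises of this kind, besides the actins, were the chaperones HSPA8, from 8186 ± 5258 to 39742 ± 8696, and HSP90AA1 (2.10 ± 0.26), and the poly(A)-binding protein PABPC1 (1.86 ± 0.29). Genes without a read in the 9 oocyte and 4-cell libraries included MMP12, a metalloproteinase, at 994, 914 and 602 in blastocysts and 0 at the 8-cell and 16-cell stages. GDPD2, a phosphodiesterase, was at 664, 824 and 646 with 0 before. The cholesterol-esterifying enzyme LCAT was at 347, 907 and 826, and UGT1A1, which conjugates bilirubin, rose from 2.85, 0 and 21 to 1927, 2387 and 1632. Other large rises came from near 0: the LIM protein CRIP1 reached 2441, 2906 and 865, SUSD2, a sushi domain protein, 1079, 2394 and 1423, and BRB, the brain-type ribonuclease, 1654, 1855 and 2186. In the other direction, the mucin MUC5B ran from 241, 390.2 and 763 to 1.33, 0 and 0 (difference -7.25 ± 0.72, adjusted p = 7.5e-08), and PLVAP, a protein of endothelial diaphragms, from 126, 51.2 and 278 to 0, 0 and 0.968 (difference -5.57 ± 0.73, adjusted p = 3.1e-06). MUC5B and PLVAP were read at the 8-cell and 16-cell stages and hardly before or after. Genes of this kind were picked for 0 reads before the 8-cell stage and a large difference, so that course is no separate result.

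Genes with many reads before activation fell more often than they rose. Over the 9 GV, MII and 4-cell libraries, 7007 tested genes had a mean scaled count of 100 or more, and of these 2524 (36.0%) fell and 1536 (21.9%) rose from the 8-cell stage to the blastocyst. That class held 73.7% of all falls and 33.3% of all rises. A rare gene can fall less far before it reaches 0 reads, so the shares of falls are not comparable between classes as rates. The filter asks for reads in 3 of 18 libraries, so a gene without reads in these 9 was tested only where later stages read it, and the shares of rises are not comparable either.

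**Figure D4:**
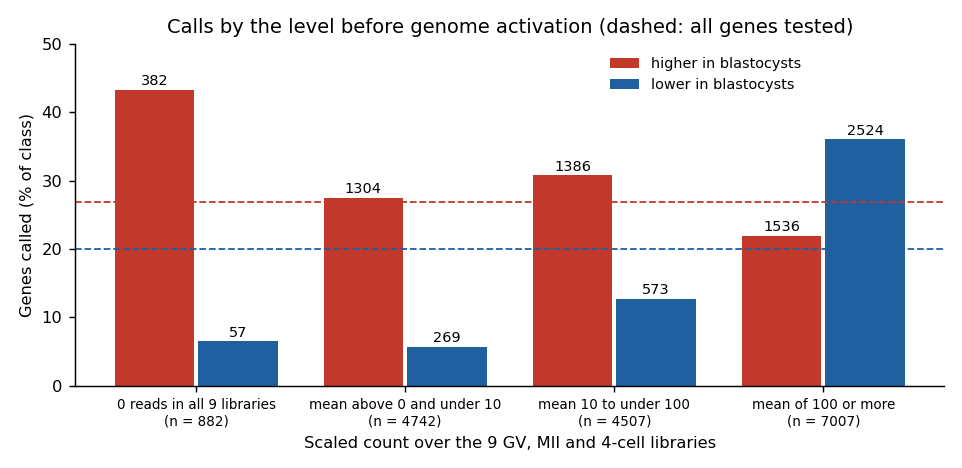
Share of genes called higher (red) or lower (blue) in blastocysts, in percent of each class (vertical), for 4 classes of mean scaled count over the 9 oocyte and 4-cell libraries (horizontal), with the number of genes above each bar and dashed lines at the shares of all genes tested. Falls take 36.0% and rises 21.9% of the class with a mean of 100 or more; bars of different classes are not comparable, since genes with few reads here passed the filter through other stages.

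The 16-cell stage lay between for most called genes. As a description, on the deposited scale the 16-cell mean was between the means of the compared stages for 1724 rises nearer the 8-cell side and 1565 nearer the blastocyst side. It was below the 8-cell mean for 745 rises, PTGS2 and KIT among them, and above the blastocyst mean for 574. Among falls, 1144 were nearer the 8-cell mean and 1321 nearer the blastocyst mean. A further 456 had a 16-cell mean above the 8-cell mean, DUXA and ZCCHC6 among them, and 502 lay below the blastocyst mean. Genes not called could also stand apart at the 16-cell stage: of the 9107 genes not called, 561 (6.16%) had all 3 16-cell libraries above all 6 libraries compared, NANOG among them, and 509 (5.59%) had them below, as had CDX2 and OCLN. The 16-cell libraries held fewer reads, from 2438473 to 7456788, and no test was made on these positions.

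Markers of other cells were checked beside these results. The summed scaled counts of 23 cumulus and granulosa cell markers ranged from 3595 to 4464 in 8-cell libraries and from 796 to 1295 in blastocysts. The markers FOXL2, LHCGR, INHA and HSD17B1 had 0 reads in all 8-cell libraries, and INHA, HSD17B1, NR5A1 and CD44 in all blastocyst libraries. Of 22 tested, 5 rose and 6 fell. Without the second 8-cell library 2 rose and 7 fell, and leaving out the first 8-cell library or either of blastocyst libraries 2 and 3 left 3 rises. HAS2, a hyaluronan synthase, fell from 1434 ± 666 to 3.3 ± 2.29, after a GV oocyte mean of 729 ± 238. CYP19A1 and FSHR were among the 5 risers, from 13.8 ± 2.88 to 339 ± 118 and from 1.31 ± 2.27 to 40.9 ± 18. The 20 sperm markers summed to 595 to 1090.4 in 8-cell and 493 to 1469 in blastocyst libraries. Of these, 10 had 0 reads in all 8-cell libraries and 7 in all blastocyst libraries. The protamines PRM2 and PRM3 had 0 reads in both stages, while PRM1 had 0 in 8-cell libraries and was read in blastocysts. Of 10 markers tested, 3 rose and 2 fell, or 30% and 20%, near the shares of all genes tested. TNP1, a transition protein, rose from 47.8, 0 and 36.7 to 170.0, 962 and 69.7 (difference 3.81 ± 1.01, adjusted p = 0.0038). CRISP2 rose from 3.5 ± 6.06 to 95.5 ± 50.2. The 15 blood and immune markers summed to 644 to 1205 in 8-cell and to 153 to 226 in blastocyst libraries. PTPRC, the pan-leukocyte marker CD45, had 0 reads in both stages. Of 11 tested, 2 rose and 2 fell. CSF1R, a receptor also read in oocytes, fell from 920.3 ± 306 to 52.4 ± 33.8 and made up most of the 8-cell sums. CD8A fell from 6.84 ± 5.3 to 0. The risers were FCER1G, from 0 to 20.6 ± 25.2, and CD68, from 28.5 ± 30.5 to 103.3 ± 35.7. The call of CD68 was kept in 6 of 16 alternative settings. The part of these markers in the other results was not tested.

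Some names stand for groups of near-identical copies. Reads of ribosomal protein genes, actins, keratins, ANXA8, interferon tau and PAG genes, DUXA, ZSCAN4 and MBD3L2 could be shared with close copies or processed pseudogenes, and the library kit does not mark strand, so overlapping genes on opposite strands cannot be told apart.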

How the data were processed

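RNA of pools of 10 oocytes or embryos was copied with mixed random and poly(A) primers, amplified and sequenced in single reads of 80 bases, per the labels' protocols. Per the submitters' processing notes, the tools were CASAVA 1.6, TopHat2 2.0.3, HTSeq and DESeq, on UMD 3.1. The deposited table holds the authors' variance-stabilized counts, on a log2-like scale, for 21668 genes in 18 libraries. That transform was inverted here: all 390024 values gave whole reads within 1e-06, which supplied depths and scaled counts. Symbols of genes listed by locus number came from RefSeq (ARS-UCD2.0), for 2564 of 5890.

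The deposited values were fitted with limma 3.58.1 in R 4.3.3: a mean per stage over all 18 libraries, which share 1 estimate of the spread, a variance trend, and the contrast blastocyst minus 8-cell, with Benjamini-Hochberg adjustment over 17138 genes, those detected (1 read or more) by 3 libraries or more. The fit was also run on simulated reads with known changes and the same spread of a gene in every stage. The outcome is not reported here, and no result rests on it. An adjusted p under 0.05 is a call. Lists are described by counts and medians, with no test of a list. Some lists share members, so their counts are not separate results. Members, gene lists and named genes were chosen with earlier results of these data known. Named genes were the 12 largest rises and falls with a symbol and no overlap, up to 4 members per list in its main direction and 2 in the other, by adjusted p, 37 key genes, the 6 most abundant calls outside the lists per direction, and 5 per direction with 0 reads before the 8-cell stage. The text gives most of them; some are not reported here. No sequence is printed, and coordinates were not used here.

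Alternatives were the 6 libraries alone, other filters, scalings and transforms, voom on the recovered reads, array weights, no variance trend, a replicate block and leaving out each library.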

Additional observations from a re-analysis of the deposited data

How the results depend on the processing

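Under the 16 alternatives the number of rises ranged from 3502 (library medians set equal) to 4858 (voom), against 4608, and the number of falls from 3030 (without the first blastocyst library) to 4290 (medians equal), against 3423, all within 1.5 times. No gene was called in the opposite direction in any of them. Quantile normalization gave 4052 rises and 3816 falls, with a median difference of 0.01. Leaving out 1 library gave 3809 to 4593 rises and 3030 to 3353 falls. The replicate block gave 4735 rises and 3530 falls; deviations of same-numbered libraries correlated at 0.038, 0.001 and 0.059, so the numbers are not taken to pair the pools. Of 243 named genes with a call, 228 kept it in each alternative that gave a value, 15 lost it in at least 1, and none reversed. Genes read only in the 3 blastocyst libraries, such as BOK and GDPD2, gave no value when 1 of those was left out. Of 8 named genes without a call, 4 gained one in at least 1 alternative. Signs turned in uncalled genes only. NANOG, at 0.53, went to -0.0422 with quantile normalization, -0.183 with array weights, -0.935 without the second 8-cell library and -0.0344 without the first blastocyst library. SOX2, at 0.86, went to -0.0232 without the second 8-cell library and to 1.83, past the threshold, without replicate 3 of that stage. Of 74 list counts, 55 stayed within 1.5 times in every alternative; the cause of the other moves was not tested. The limits are 3 pools a stage, a shallow 8-cell library, replicate 3 (5206082 reads), and a second 8-cell library that differs from the other two, so a gene that did not pass the test is not shown to be equal between the stages.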
